A study of Mus musculus with 12 samples.

Results

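The mitochondrial chromosome carries 37 of the 55536 genes in the deposited table of raw read counts. They were taken as every row whose gene lies on that chromosome, all with symbols that start with mt-, and they comprise 13 protein-coding genes, 2 ribosomal RNAs (rRNAs) and 22 transfer RNAs (tRNAs). Bulk RNA sequencing was made from C2C12 cells, a mouse myoblast line that fuses into myotubes and is used here, per the study's methods, as a derivative that makes green fluorescent protein. The cells were differentiated on uncoated plates (Control) or on a coating of Collagen I, of Fibronectin or of Geltrex™, with 3 samples in each of the 4 groups. Collagen I is a fibril-forming collagen, fibronectin is an adhesive glycoprotein of the extracellular matrix, and Geltrex™ is a basement membrane extract. All groups share the same cell line, the labels do not say whether the 3 samples of a group are separate cultures, and the p-values therefore measure only the spread between these samples.

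Mitochondrial DNA is a small circle that is transcribed from both strands into long RNAs. These are cut into rRNAs, messenger RNAs (mRNAs) and tRNAs, mostly at the tRNAs that sit between the other genes. The mRNAs encode membrane subunits of respiratory complexes I, III and IV and of the ATP synthase (complex V), and the mitochondrial rRNAs and tRNAs translate them. All other subunits, and the enzymes that copy, transcribe and translate the mitochondrial genome, come from nuclear genes. In skeletal muscle, slow oxidative fibers hold more mitochondria than most fast fibers.

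Total counts lay between 22520404 and 27351766 per sample. The third Collagen I sample stood apart, with 11.5% of its counts on mitochondrial genes. Calls of mitochondrial genes that were lost without it are named below. Myotube markers (*Myog*, *Mymk*, *Myh3*, *Ckm*, *Acta1* and *Actn2*) summed to 4323 to 5076 CPM (each gene's counts scaled to a common library total) on Control, 4621 to 5152 CPM on Collagen I, 1076 to 1344 CPM on Fibronectin and 1546 to 1756 CPM on Geltrex™. All 6 were detected in every sample, and their summed level was lower in each Fibronectin and Geltrex™ sample than in each Control and Collagen I sample. The part of this difference in the mitochondrial results was not tested, and in bulk samples fewer cells of a kind and less RNA per cell cannot be told apart. Myoblast markers summed to 1497 to 1698 CPM on Control, 1473 to 1609 on Collagen I, 960.3 to 1091 on Fibronectin and 1281 to 1312 on Geltrex™, with *Pax7* at most 0.787 CPM. Most of this sum was *Des*, at 816 to 1537 CPM over the 12 samples, beside 103 to 139 for *Myod1* and 28.7 to 37.9 for *Myf5*. The sum therefore mostly follows *Des*. Fat, vessel and macrophage markers summed to at most 0.398 CPM in any sample. Bone markers summed to 3.40 to 4.17 CPM on Control, 4.12 to 4.33 on Collagen I, 3.05 to 4.62 on Fibronectin and 6.17 to 6.41 on Geltrex™, nearly all of it *Dmp1* (73 to 155 counts per sample), while *Ibsp* had 0 counts in all samples. The part of these markers in the results was not tested.

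The mitochondrial mRNAs made up 89.7% to 94.1% of all mitochondrial counts, the rRNAs 5.77% to 10.2% and the tRNAs 0.115% to 0.160%. Per length, the mean level over the 12 samples ran from 9.75 to 12638 CPM per kb for the mRNAs, from 653 to 2952 CPM per kb for the rRNAs and from 0 to 773 CPM per kb for the tRNAs. *mt-Co1*, the catalytic core subunit of complex IV, was the highest at 12638 CPM per kb. *mt-Cytb*, the cytochrome b of complex III, followed at 9234 CPM per kb. The complex I subunits *mt-Nd1*, *mt-Nd6*, *mt-Nd5*, *mt-Nd2* and *mt-Nd4* had 7168, 6779, 5960.4, 4729 and 3272 CPM per kb. These 7 mRNAs lay far above the other 6, *mt-Atp6* at 156, *mt-Co2* at 114, *mt-Co3* at 77.3, *mt-Nd4l* at 33.3, *mt-Atp8* at 24.6 and *mt-Nd3* at 9.75 CPM per kb. The 6 low genes are neighbours between *mt-Co1* and *mt-Nd4* on the chromosome, as the plot of level by gene order shows.

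**Figure D1:**
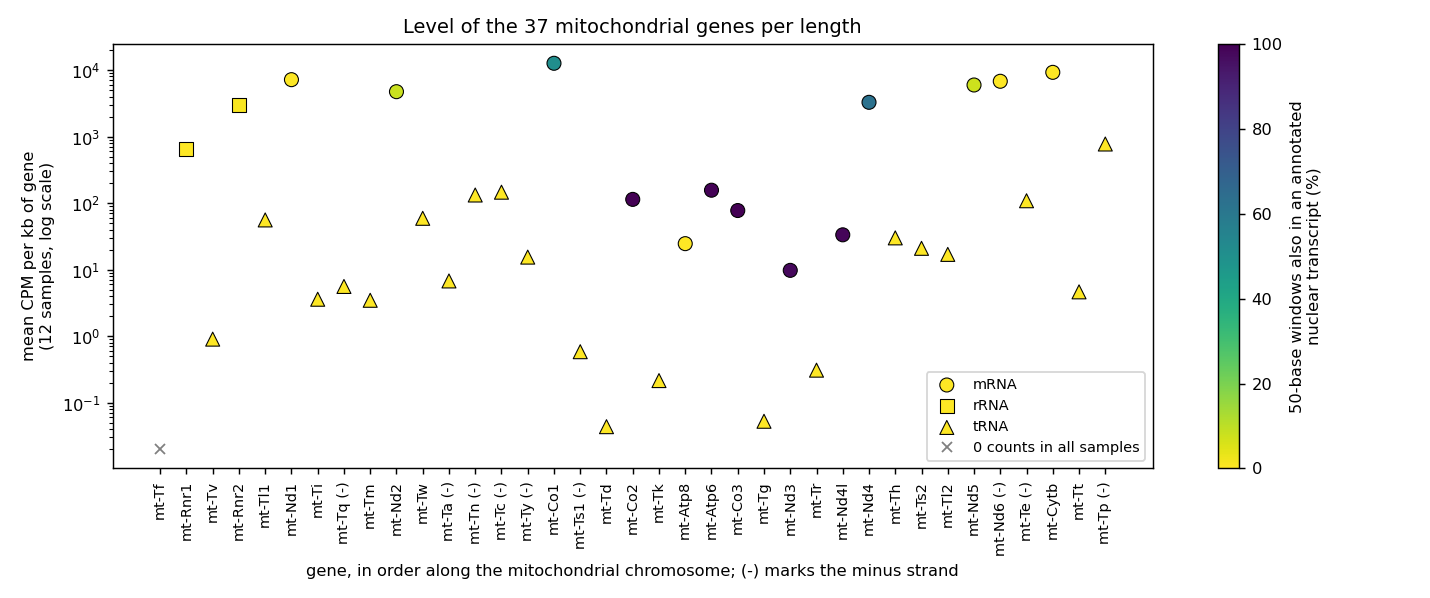
Mean level of each mitochondrial gene over the 12 samples in CPM per kb of gene (log axis), in order along the chromosome, with the marker shape for the class and the colour for the percent of its 50-base windows that also occur in an annotated nuclear transcript. The 5 darkest mRNAs, *mt-Co2*, *mt-Atp6*, *mt-Co3*, *mt-Nd3* and *mt-Nd4l*, lie between 9.75 and 156 CPM per kb, and the 22 tRNAs spread from 0 counts (grey cross, placed at the foot of the axis) to 773 CPM per kb.

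Of the 6 low mRNAs, 5 share nearly all of their sequence with nuclear copies. In *mt-Co2*, *mt-Atp6*, *mt-Co3*, *mt-Nd3* and *mt-Nd4l*, 98.0% to 100% of all 50-base windows also occur in an annotated nuclear transcript, against 0% in *mt-Nd1*, *mt-Nd6*, *mt-Cytb* and *mt-Atp8*. The other 4 mRNAs lie between, from 7.61% in *mt-Nd5* to 62.2% in *mt-Nd4*. A run of 7 unprocessed pseudogenes on the minus strand at chr1:24611535-24616197 matches the mitochondrial chromosome from base 6390 to base 11042. *mt-Atp8*, with no copied window and a low level, lies between *mt-Co2* and *mt-Atp6*, where the annotated copies leave a gap of 233 bases on chromosome 1, as long as the gap between the matched stretches on the mitochondrial chromosome. Its last 43 bases are identical to the start of the chromosome 1 copy of *mt-Atp6*, a stretch too short for a 50-base window. The unannotated bases of the chromosome 1 gap were not compared. Positions are those of the GENCODE M21 annotation of the GRCm38 build, which holds all 55536 gene identifiers of the table, while the build, the strand setting and the handling of reads that match several places in the authors' counting are not given in the sources used here. A read that matches a gene and its copy equally cannot be told apart, so the counts of these genes are uncertain.

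The first 80 bases of *mt-Co2* and of 2 of its nuclear copies are shown to make the likeness visible, from the GENCODE M21 transcripts on GRCm38, with bases that differ from *mt-Co2* in capitals.
mt-Co2 start, chrM:7013-7092, plus strand: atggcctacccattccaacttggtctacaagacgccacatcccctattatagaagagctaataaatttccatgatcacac
Gm28661 start, chr1:24615486-24615565, minus strand: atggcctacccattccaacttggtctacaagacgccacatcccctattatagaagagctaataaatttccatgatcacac
Gm13341 start, chr2:22587883-22587962, minus strand: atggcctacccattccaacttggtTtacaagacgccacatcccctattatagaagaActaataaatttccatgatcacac
The chromosome 1 copy *Gm28661* has no differing base in this stretch, and the chromosome 2 copy *Gm13341* has 2.

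The counts of the copied genes were split with their chromosome 1 copies in shares that varied between samples. *mt-Atp6*, a membrane subunit of the ATP synthase at chrM:7927-8607, plus strand, held 49.95, 19.05 and 32.1% of the summed counts of itself and its copy *Gm10925* on Control, 32.5, 23.6 and 16.3% on Collagen I, 25.7, 26.02 and 16.3% on Fibronectin and 30.1, 36.5 and 54.9% on Geltrex™. The share ran from 16.3% to 54.9%, and all pairs of groups overlapped except Fibronectin and Geltrex™, where every Geltrex™ sample was higher. It was steadier for *mt-Nd4l* against *Gm10222*, from 25.7% to 32.95%, for *mt-Co3* against *Gm28437*, from 31.7% to 48.5%, for *mt-Co2* against *Gm28661*, from 29.8% to 48.9%, and for *mt-Nd3* against *Gm28438*, from 9.53% to 18.1%. Across the 12 samples, *mt-Atp6* followed the other mRNAs least, with Pearson's r of 0.124 to 0.631 between log2 levels, while the 66 pairs of the other mRNAs had r of 0.664 to 0.999 with a median of 0.913. These correlations describe 12 libraries that share the same scaling and genes that share bases.

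Some genes also share bases with each other. *mt-Atp8* and *mt-Atp6* overlap on the same strand by 43 bases, in different reading frames, and this end of *mt-Atp8* is shown with the shared bases in capitals (GENCODE M21, GRCm38).
mt-Atp8 end, chrM:7907-7969, plus strand: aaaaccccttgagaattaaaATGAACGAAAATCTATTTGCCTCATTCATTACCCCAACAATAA
*mt-Nd4l* and *mt-Nd4* share 7 bases in the same way, and *mt-Nd5* and *mt-Nd6* share 14 bases on opposite strands. *mt-Nd6* (chrM:13552-14070) is the only mRNA on the minus strand, where 8 tRNAs also lie, and without a known strand setting its reads and those of RNA from the opposite strand cannot be told apart. Its level of 6779 CPM per kb lay near those of its neighbours *mt-Nd5* at 5960.4 and *mt-Cytb* at 9234, and its r with *mt-Nd5* over the 12 samples was 0.983.

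The first comparison asked what share of the counts fell on mitochondrial genes under each coating. Reads of the copied genes that were not counted on the mitochondrial rows are missing from this share. Mitochondrial genes took 7.002, 5.14 and 8.28% on Control, 6.90, 6.39 and 11.5% on Collagen I, 4.56, 6.04 and 6.21% on Fibronectin and 5.68, 5.82 and 6.19% on Geltrex™. The means were 6.81% ± 1.58 (SD, n = 3) on Control, 8.25% ± 2.80 on Collagen I, 5.60% ± 0.909 on Fibronectin and 5.90% ± 0.260 on Geltrex™. Each Collagen I sample was above each Fibronectin and Geltrex™ sample, while Control overlapped with each of the other groups. An exact permutation test over the 4 groups gave p = 0.227, or 0.448 after Benjamini-Hochberg adjustment for the 28 tests of shares. A comparison of 3 samples against 3 cannot reach a two-sided p below 0.1, the value for Collagen I against Fibronectin and against Geltrex™. Leaving out each sample in turn moved the p over the 4 groups between 0.0910 and 0.478.

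The classes were not spread alike over the groups, as the plot of shares by class shows. mRNAs took 6.41, 4.67 and 7.70% on Control, 6.34, 5.87 and 10.6% on Collagen I, 4.23, 5.68 and 5.77% on Fibronectin and 5.10, 5.25 and 5.61% on Geltrex™ of all counts, with an exact p over the 4 groups of 0.24. rRNAs took 0.580, 0.470 and 0.573% on Control, 0.552, 0.516 and 0.852% on Collagen I, 0.318, 0.348 and 0.430% on Fibronectin and 0.579, 0.561 and 0.573% on Geltrex™. Fibronectin had the lowest rRNA share, with all 3 samples below the 9 of the other groups. The exact p over the 4 groups was 0.0212 for rRNAs and 0.0205 for tRNAs, each 0.215 after adjustment over the 28 tests, so neither held after correction. tRNAs took 0.0106, 0.00823 and 0.0103% on Control, 0.0104, 0.00976 and 0.0184% on Collagen I, 0.00626, 0.00697 and 0.00823% on Fibronectin and 0.00765, 0.00776 and 0.00798% on Geltrex™. All Fibronectin and Geltrex™ samples lay below all Control and Collagen I samples in the tRNA share, the third Fibronectin and the second Control sample nearly level. Without the third Collagen I sample the exact p over the 4 groups was 0.0158 for rRNAs and 0.0255 for tRNAs, and over the samples left out in turn they ran from 0.00416 to 0.111 and from 0.00273 to 0.112.

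**Figure D2:**
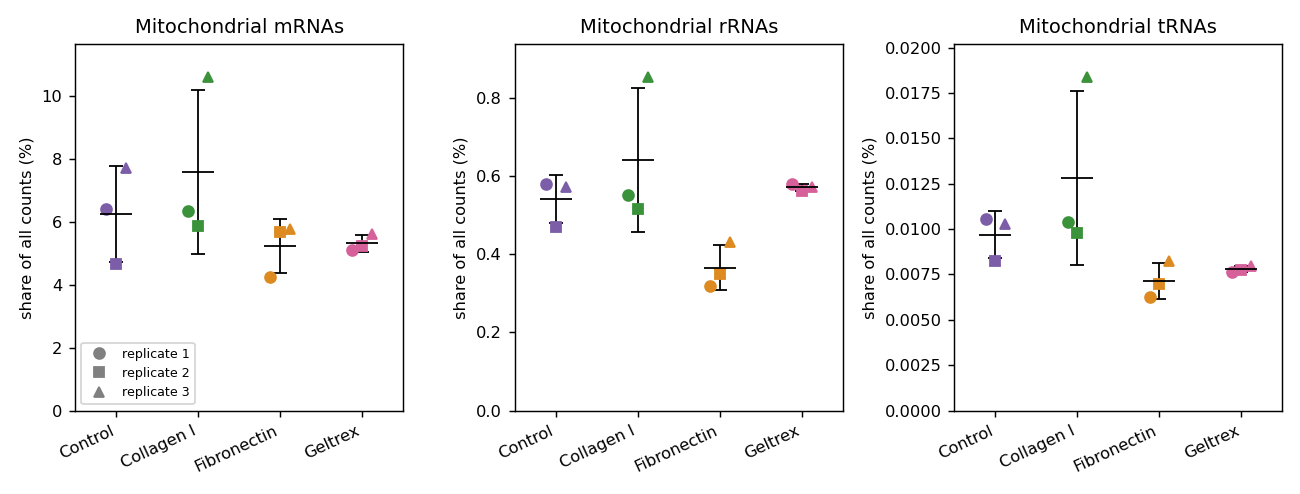
Share of all counts (%) on mitochondrial mRNAs, rRNAs and tRNAs in each of the 12 samples, with the mean (long bar) and SD (whiskers) of the 3 samples of a group and a marker shape for the replicate number. The Fibronectin rRNA shares, 0.318% to 0.430%, lie below all others, and the third Collagen I sample is the highest in each panel.

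Ratios within the mitochondrial counts do not depend on how the library was scaled. rRNA counts per 100 mRNA counts were 9.05, 10.1 and 7.44 on Control, 8.71, 8.80 and 8.04 on Collagen I, 7.51, 6.13 and 7.46 on Fibronectin and 11.4, 10.7 and 10.2 on Geltrex™. The 3 Geltrex™ samples lay above the 9 others, and Fibronectin was below Collagen I in every sample. The exact p over the 4 groups was 0.00578, or 0.0809 adjusted over the 28 tests of ratios, and it ran from 0.000130 to 0.0242 when each sample was left out in turn. The difference between Geltrex™ and Fibronectin was 0.62 on the log2 scale (exact two-sided p = 0.1, the smallest possible). The 354 rows annotated as nuclear rRNA, with 99.96% of their counts on the row *CT010467.1*, summed to 1064 to 2667 CPM on Control, 1939 to 4586 on Collagen I, 3020 to 8959 on Fibronectin and 4331 to 5085 on Geltrex™. *Lars2*, the nuclear gene for the enzyme that charges mitochondrial leucine tRNAs, had 280 to 711 CPM on Control, 476 to 995 on Collagen I, 411 to 1149 on Fibronectin and 1266 to 1400 on Geltrex™, highest on Geltrex™ like the ratio. The part of either in the ratio was not tested.

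**Figure D3:**
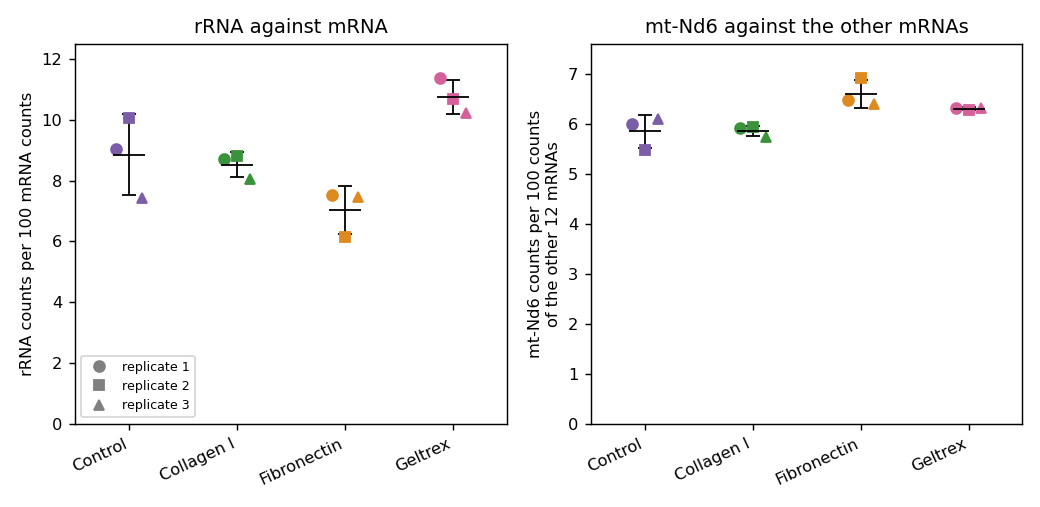
rRNA counts per 100 mRNA counts (left) and *mt-Nd6* counts per 100 counts of the other 12 mitochondrial mRNAs (right) in each of the 12 samples, with the mean (long bar) and SD (whiskers) of the 3 samples per group. Geltrex™ lies highest in the left panel, at 10.2 to 11.4, and Fibronectin highest in the right panel, at 6.39 to 6.91.

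*mt-Nd6*, the complex I subunit encoded on the minus strand, had 5.996, 5.48 and 6.09 on Control, 5.91, 5.93 and 5.74 on Collagen I, 6.48, 6.91 and 6.39 on Fibronectin and 6.31, 6.27 and 6.32 on Geltrex™ counts per 100 counts of the other 12 mRNAs. Every Fibronectin sample lay above every Geltrex™ sample, and every Geltrex™ sample above every Control and Collagen I sample. The exact p over the 4 groups was 0.00416, or 0.0809 adjusted over the 28 tests, and without each sample in turn it ran from 0.000195 to 0.0249. The differences were small, at 0.17 on the log2 scale between Fibronectin and Control and 0.11 between Geltrex™ and Control. *mt-Rnr2* counts were 6.81 to 8.47 times *mt-Rnr1* counts over the 12 samples, and the log2 ratio of the pair gave an exact p over the 4 groups of 0.0908. The log2 ratio of tRNA to mRNA counts gave an exact p of 0.114.

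Of the 37 genes, 27 passed the filter on low counts: all 13 mRNAs, both rRNAs and 12 tRNAs. The other 10 tRNAs (*mt-Tf*, *mt-Tv*, *mt-Ti*, *mt-Tm*, *mt-Ts1*, *mt-Td*, *mt-Tk*, *mt-Tg*, *mt-Tr* and *mt-Tt*) did not exceed 18 counts per sample and stayed untested. The method by which rRNA was removed or mRNA selected before sequencing is not given in the sources used here. *mt-Tf*, the tRNA for phenylalanine, had 0 counts in all 12 samples, which allows a level of up to 0.110 to 0.133 CPM per sample (3 counts, for counting error only). Fold changes and p-values come from the quasi-likelihood test of edgeR, with p-values adjusted by Benjamini-Hochberg across the 14499 genes that passed, and a gene was called at an adjusted p of at most 0.05. Levels below are CPM scaled with TMM factors, and fold changes are log2 ± SE.

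Collagen I against Control called none of the 27 genes, where 1.12% of all genes tested were called. An unadjusted p under 0.05 was found for 5 of the 27 (*mt-Rnr1*, *mt-Tc*, *mt-Ty*, *mt-Co2* and *mt-Tl2*), and DESeq2 called 1, *mt-Tc*. Called genes were lower on Collagen I for 0.917% of all genes and higher for 0.2%. The samples of the groups did not overlap for 3 of the 27, beside 17.3% of all genes. The median log2 fold change of the 13 mRNAs was 0.25, beside -0.003 over all genes tested. Without the third Collagen I sample this median was -0.11, so its sign rested on that sample, and without the second or the third Control sample it was 0.066 or 0.49.

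Fibronectin against Control called 3 of the 27 genes, all lower (*mt-Rnr1*, *mt-Rnr2* and *mt-Atp6*), beside 31.9% of all genes tested and 14.7% called lower. Geltrex™ against Control called 3, with *mt-Tw* and *mt-Tc* lower and *mt-Te* higher, beside 33% of all genes tested. Without the first Control sample or the first or the second Fibronectin sample, the call of *mt-Atp6* alone was left on Fibronectin, and without the third Control or the first Geltrex™ sample, that of *mt-Tc* alone on Geltrex™. The fold was at least 2 for 1 called gene in each, *mt-Atp6* and *mt-Tw*, beside 6.66% and 9.14% of all genes. The groups did not overlap for 4 of the 27 genes on Fibronectin and 5 on Geltrex™, beside 41.6% and 50.4% of all genes. The mRNA medians were -0.26 in both, beside -0.016 and -0.012 over all genes, and the comparisons share the Control samples. Without the third Control sample the medians were -0.055 on Fibronectin and -0.096 on Geltrex™, with 5 and 4 of the 13 log2 fold changes positive in place of 0. Without the second Control sample they were -0.42 and -0.40, and without the first Fibronectin sample the median on Fibronectin was -0.14.

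Collagen I against Fibronectin called 12 of the 27 genes, all higher on Collagen I, beside 45% of all genes tested and 22.1% called higher. Collagen I against Geltrex™ called 10, all higher on Collagen I, beside 37.1% of all genes tested and 18.2% called higher. Called genes were lower on Collagen I for 22.9% and 19% of all genes. The fold was at least 2 for 5 called genes in each comparison, beside 8.46% and 9.32% of all genes, and the groups did not overlap for 11 and 16 of the 27, beside 51.4% and 54.7%. The mRNA medians were 0.51 and 0.54, beside 0.022 and 0.026 over all genes, and both comparisons share the Collagen I samples. Without the third Collagen I sample, 6 genes were called in each, with 1 of the 6 against Geltrex™ (*mt-Te*) lower on Collagen I, and the mRNA medians were 0.16 and 0.21. Without the first Fibronectin sample, 7 were called against Fibronectin, and 6 and 5 were called against Geltrex™ without the second and the third Geltrex™ sample. Without the second Collagen I sample the counts were 18 and 17. Fibronectin against Geltrex™ called 5, with *mt-Tw* higher on Fibronectin and *mt-Rnr1*, *mt-Rnr2*, *mt-Atp6* and *mt-Te* lower, beside 19.3% of all genes tested, 10.3% called higher and 9.06% called lower. The fold was at least 2 for 3 of the 5, beside 3.98% of all genes, and the groups did not overlap for 7 of the 27, beside 42.7%. It called 2 without the first Fibronectin sample and 3 without the second Fibronectin or the third Geltrex™ sample.

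**Figure D4:**
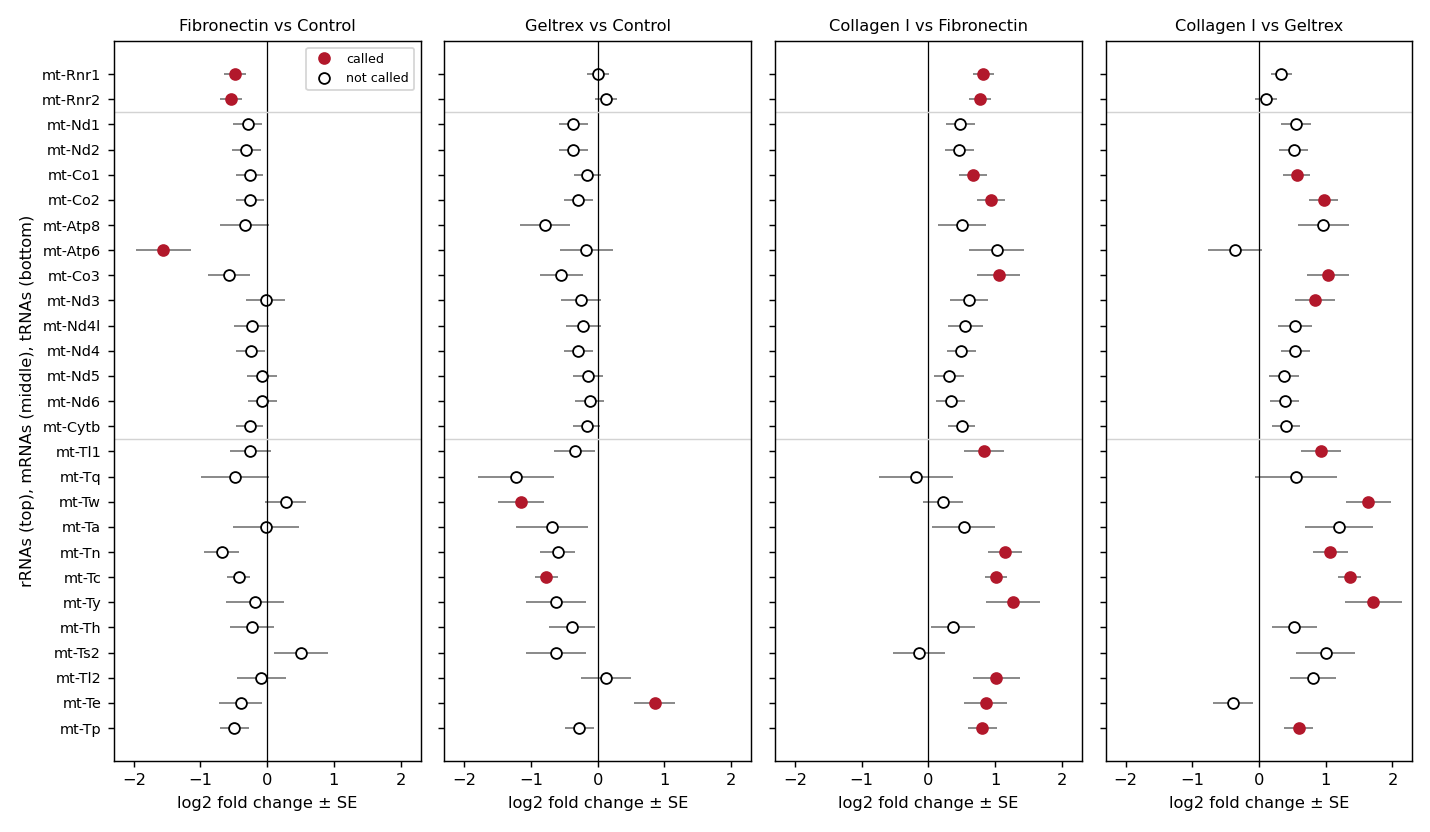
Log2 fold change (first group over second) ± SE of the 27 tested mitochondrial genes in 4 comparisons, with rRNAs at the top, mRNAs in the middle and tRNAs at the bottom, filled red where called at an adjusted p of at most 0.05. The 12 called genes of Collagen I against Fibronectin and the 10 of Collagen I against Geltrex™ all lie to the right of 0.

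The rRNAs build the mitochondrial ribosome, *mt-Rnr1* (12S, chrM:70-1024, plus strand) its small subunit and *mt-Rnr2* (16S, chrM:1094-2675, plus strand) its large subunit. *mt-Rnr1* had 666, 505 and 706 on Control, 687, 630.2 and 1057 on Collagen I, 410.4, 459.7 and 472 on Fibronectin and 645, 597 and 639.9 on Geltrex™ (CPM). *mt-Rnr2* had 4907, 4207 and 5084 on Control, 4716, 4402 and 7524 on Collagen I, 2818, 3130.0 and 3828 on Fibronectin and 5185, 5055 and 5179.6 on Geltrex™ (CPM). In both genes all 3 Fibronectin samples lay below all 9 samples of the other groups. Against Control, *mt-Rnr1* was lower on Fibronectin at -0.48 ± 0.16 (adjusted p = 0.0297) and *mt-Rnr2* at -0.54 ± 0.17 (adjusted p = 0.021). Both lost the call without the first or the third Control sample or without the first or the second Fibronectin sample, with adjusted p up to 0.115 for *mt-Rnr1* and 0.1005 for *mt-Rnr2*. On Collagen I against Fibronectin both were higher, *mt-Rnr1* by 0.82 ± 0.16 (adjusted p = 0.000768) and *mt-Rnr2* by 0.77 ± 0.17 (adjusted p = 0.00167), and both kept the call under all 15 alternatives run (another tool, scalings, filters, fits, samples left out and copies summed), at 0.56 and 0.49 without the third Collagen I sample. Against Geltrex™, Fibronectin was lower at -0.49 ± 0.16 for *mt-Rnr1* (adjusted p = 0.0423) and -0.66 ± 0.17 for *mt-Rnr2* (adjusted p = 0.0107). *mt-Rnr1* lost this call without the first or the second Fibronectin sample or any of the Geltrex™ samples (adjusted p up to 0.142), and *mt-Rnr2* without the first Fibronectin sample (adjusted p = 0.0579).

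The complex IV subunits form the catalytic core that passes electrons to oxygen. *mt-Co1* (chrM:5328-6872, plus strand) had 19891, 15218 and 22675 on Control, 20679.7, 19225 and 36712 on Collagen I, 13514, 16878 and 17818 on Fibronectin and 16546, 17144 and 18017 on Geltrex™ (CPM). All Collagen I samples lay above all Fibronectin and Geltrex™ samples, and the third Collagen I sample was far above the rest. It was higher on Collagen I by 0.67 ± 0.20 against Fibronectin (adjusted p = 0.0141) and by 0.57 ± 0.20 against Geltrex™ (adjusted p = 0.0377). Without the third Collagen I sample the differences were 0.32 and 0.21, and neither was called (adjusted p = 0.0934 and 0.284). The call against Fibronectin was also lost without the first Fibronectin sample, and the call against Geltrex™ in 6 of 15 alternatives in all.

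*mt-Co2* (chrM:7013-7696, plus strand), which binds cytochrome c, had 79.7, 60.2 and 79.2 on Control, 109.8, 80.8 and 160.0 on Collagen I, 46.4, 74.2 and 62.95 on Fibronectin and 51.5, 56.9 and 70.9 on Geltrex™ (CPM). Every Collagen I sample was above every sample of the other 3 groups. It was higher on Collagen I by 0.93 ± 0.21 against Fibronectin (adjusted p = 0.00231) and by 0.97 ± 0.21 against Geltrex™ (adjusted p = 0.00218), and by 0.68 ± 0.21 against Control without passing the test (adjusted p = 0.13). *mt-Co2* was the only mRNA whose calls against Fibronectin and Geltrex™ held under all 15 alternatives run, including the sum with its copy *Gm28661*. *mt-Co3* (chrM:8607-9390, plus strand) had 56.4, 44.1 and 93.1 on Control, 62.01, 55.4 and 154 on Collagen I, 34.7, 43.999 and 51.6 on Fibronectin and 48.9, 44.1 and 39.4 on Geltrex™ (CPM), with the third Collagen I sample far above all others. It was higher on Collagen I by 1.06 ± 0.32 against Fibronectin (adjusted p = 0.0141) and 1.03 ± 0.32 against Geltrex™ (adjusted p = 0.0193). Both calls were lost without the third Collagen I sample, at 0.44 and 0.41. The first was also lost without the first Fibronectin sample and the second without the second or the third Geltrex™ sample.

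Complex I, which takes electrons from NADH, has 7 mitochondrial subunits, and 1 of them, *mt-Nd3*, was called, in a single comparison. *mt-Nd3* (chrM:9459-9806, plus strand) had 3.38, 2.57 and 3.48 on Control, 3.25, 3.57 and 7.33 on Collagen I, 2.82, 2.39 and 4.04 on Fibronectin and 2.69, 3.13 and 2.03 on Geltrex™ (CPM). It was higher on Collagen I than on Geltrex™ by 0.84 ± 0.29 (adjusted p = 0.0346), and the difference was 0.38 with no call without the third Collagen I sample. The call was lost in 4 of 15 alternatives in all. The other 6 passed the test in no comparison. *mt-Nd1* had 7098, 5402 and 9592 on Control, 7047, 6363 and 11716 on Collagen I, 4601, 6869 and 6556 on Fibronectin and 5528, 5641 and 5938 on Geltrex™ (CPM). *mt-Nd2* had 5083, 3874 and 7031 on Control, 4960.1, 4609 and 8156 on Collagen I, 3323, 4872 and 4657 on Fibronectin and 4038, 4048 and 4280.1 on Geltrex™ (CPM). In both genes the 3 Control samples overlapped with the Fibronectin and Geltrex™ samples, and the 3 Geltrex™ samples lay close to each other. *mt-Nd4* had 4869, 3318 and 5903 on Control, 4568, 4304 and 7832 on Collagen I, 3177, 4458 and 4216 on Fibronectin and 3631, 3713 and 4137 on Geltrex™ (CPM). *mt-Nd5* had 9859, 8149 and 14474 on Control, 10464, 9709 and 17892 on Collagen I, 8055, 12171 and 10617 on Fibronectin and 9205, 9596 and 10471 on Geltrex™ (CPM). *mt-Nd6* had 3483, 2429 and 4473 on Control, 3463, 3201 and 5789 on Collagen I, 2619, 3786 and 3465 on Fibronectin and 3048, 3124 and 3386 on Geltrex™ (CPM). Their log2 fold changes on Collagen I were 0.50 ± 0.22, 0.30 ± 0.22 and 0.34 ± 0.22 against Fibronectin, with adjusted p of 0.0742, 0.286 and 0.223. *mt-Nd4l*, the smallest of the 7, had 7.99, 7.85 and 14.3 on Control, 9.49, 9.14 and 18.9 on Collagen I, 7.54, 8.37 and 9.63 on Fibronectin and 8.63, 7.99 and 9.15 on Geltrex™ (CPM) and was called in none of the 6 comparisons.

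*mt-Cytb* (chrM:14145-15288, plus strand), the only mitochondrial subunit of complex III, had 10936, 8214 and 13349.7 on Control, 10582, 9563 and 18128 on Collagen I, 7584, 9355 and 10156 on Fibronectin and 9151, 9461 and 10334 on Geltrex™ (CPM). Every pair of groups overlapped, and its largest difference, 0.50 ± 0.21 between Collagen I and Fibronectin, had an adjusted p of 0.0612. The ATP synthase subunit *mt-Atp8* (chrM:7766-7969, plus strand) had 4.85, 3.19 and 9.26 on Control, 4.33, 4.83 and 10.2 on Collagen I, 3.31, 6.24 and 4.12 on Fibronectin and 3.25, 3.83 and 2.80 on Geltrex™ (CPM). It was called in no comparison, with its largest difference at 0.96 ± 0.38 between Collagen I and Geltrex™ (adjusted p = 0.0555).

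*mt-Atp6* had 199, 68.9 and 169 on Control, 105, 60.7 and 136 on Collagen I, 40.2, 53.96 and 54.2 on Fibronectin and 72.996, 84.9 and 229 on Geltrex™ (CPM). All 3 Fibronectin samples lay below all 9 others, the first and the third Control samples were above the second, and the third Geltrex™ sample stood far above the other Geltrex™ samples. It was lower on Fibronectin at -1.56 ± 0.41 against Control (adjusted p = 0.00959) and at -1.38 ± 0.41 against Geltrex™ (adjusted p = 0.0281). When the counts of the copy *Gm10925* were added to the gene, an alternative chosen after seeing the data, the differences were -0.88 ± 0.36 (adjusted p = 0.0770) and -0.36 ± 0.36 (adjusted p = 0.527), and neither was called. The call against Geltrex™ was also lost without the third Geltrex™ sample, at -0.68 (adjusted p = 0.231), and without the first or the second Fibronectin sample. On Collagen I, *mt-Atp6* was at 1.02 ± 0.41 against Fibronectin (adjusted p = 0.0536), not called, and with the copy added it was called. Against Control and Geltrex™ it was at -0.53 ± 0.40 and -0.36 ± 0.40, not called, and with the copy added both were positive.

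Of the 22 tRNAs, which carry amino acids to the mitochondrial ribosome, 15 were detected in all 12 samples and 7 had at most 3 counts in every sample. Their genes are 59 to 75 bases long, shorter than a read by the study's methods. Counts on these rows from mature tRNAs and from longer RNAs that hold the same bases therefore cannot be told apart. Levels and calls of tRNAs below are those of the rows. The sequences of the tRNAs on which the results turn are shown 5′ to 3′ from GENCODE M21 (GRCm38), as DNA of the gene's strand, with the anticodon in capitals.
mt-Tw, chrM:4950-5016, plus strand: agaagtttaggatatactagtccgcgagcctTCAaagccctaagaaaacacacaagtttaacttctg
mt-Tc, chrM:5192-5257, minus strand: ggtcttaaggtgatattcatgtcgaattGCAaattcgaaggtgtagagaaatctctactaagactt
mt-Tn, chrM:5089-5159, minus strand: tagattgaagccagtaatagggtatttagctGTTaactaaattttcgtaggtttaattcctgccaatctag
mt-Te, chrM:14071-14139, minus strand: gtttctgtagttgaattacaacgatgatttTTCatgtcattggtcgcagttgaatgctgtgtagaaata
mt-Tp, chrM:15356-15422, minus strand: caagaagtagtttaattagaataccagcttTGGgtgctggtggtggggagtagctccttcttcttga
mt-Tl1, chrM:2676-2750, plus strand: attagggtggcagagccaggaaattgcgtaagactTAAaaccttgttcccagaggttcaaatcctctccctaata
*mt-Tw*, *mt-Tn* and *mt-Tc* carry tryptophan, asparagine and cysteine and lie within the cluster of 5 tRNA genes between *mt-Nd2* and *mt-Co1*, where *mt-Tw* is on the plus strand and the other 2 are on the minus strand. *mt-Te* carries glutamate, *mt-Tp* proline and *mt-Tl1* leucine. None of the tRNA windows occurs in an annotated nuclear transcript.

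*mt-Tw* had 4.14, 3.01 and 4.54 on Control, 5.03, 3.23 and 8.19 on Collagen I, 4.09, 5.94 and 4.12 on Fibronectin and 0.982, 2.22 and 2.03 on Geltrex™ (CPM). All 3 Geltrex™ samples lay below the 9 others. It was lower on Geltrex™ than on Control at -1.15 ± 0.34 (adjusted p = 0.0168), a call lost without the third Control or the first Geltrex™ sample, and Fibronectin was higher than Geltrex™ by 1.43 ± 0.34 (adjusted p = 0.00724) and Collagen I by 1.64 ± 0.33 (adjusted p = 0.0013), both kept in all 15 alternatives. *mt-Tc* had 9.70, 8.95 and 11.4 on Control, 12.9, 12.7 and 19.6 on Collagen I, 6.95, 8.04 and 7.42 on Fibronectin and 6.49, 6.26 and 4.82 on Geltrex™ (CPM). Its groups did not overlap and stood in the order Collagen I, Control, Fibronectin, Geltrex™. Geltrex™ was lower than Control at -0.77 ± 0.18 (adjusted p = 0.00316), and Collagen I was higher than Fibronectin by 1.01 ± 0.17 (adjusted p = 0.000223) and than Geltrex™ by 1.36 ± 0.17 (adjusted p = 1.92e-05). These 3 calls held in all 15 alternatives, and the neighbours in the order, Collagen I and Control, Control and Fibronectin, and Fibronectin and Geltrex™, were not called against each other (adjusted p = 0.0953, 0.0707 and 0.191).

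*mt-Tn* had 11.4, 11.3 and 7.94 on Control, 11.3, 12.9 and 18.2 on Collagen I, 6.24, 3.39 and 9.40 on Fibronectin and 6.45, 6.76 and 7.03 on Geltrex™ (CPM). The Collagen I samples lay above all Fibronectin and Geltrex™ samples, and the 3 Geltrex™ samples lay close to each other. Collagen I was higher by 1.15 ± 0.26 against Fibronectin (adjusted p = 0.00242) and 1.06 ± 0.26 against Geltrex™ (adjusted p = 0.00497), and both calls held in all 15 alternatives. *mt-Te* had 6.9999, 5.80 and 5.35 on Control, 7.24, 5.09 and 12.9 on Collagen I, 4.35, 2.51 and 6.91 on Fibronectin and 9.27, 11.5 and 12.04 on Geltrex™ (CPM). Geltrex™ lay above Control and Fibronectin in every sample, in contrast to *mt-Tw* and *mt-Tc*. The difference was 0.85 ± 0.31 against Control (adjusted p = 0.0432), a call lost in 9 of 15 alternatives with adjusted p up to 0.124, and Fibronectin was lower than Geltrex™ at -1.24 ± 0.31 (adjusted p = 0.0109), kept in all 15 with adjusted p up to 0.04998. Collagen I exceeded Fibronectin by 0.86 ± 0.32 (adjusted p = 0.0378), and at 0.42 with no call without the third Collagen I sample. This call was lost in 5 of 15 alternatives in all, with DESeq2, with only the groups compared and without the first or the second Fibronectin sample.

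**Figure D5:**
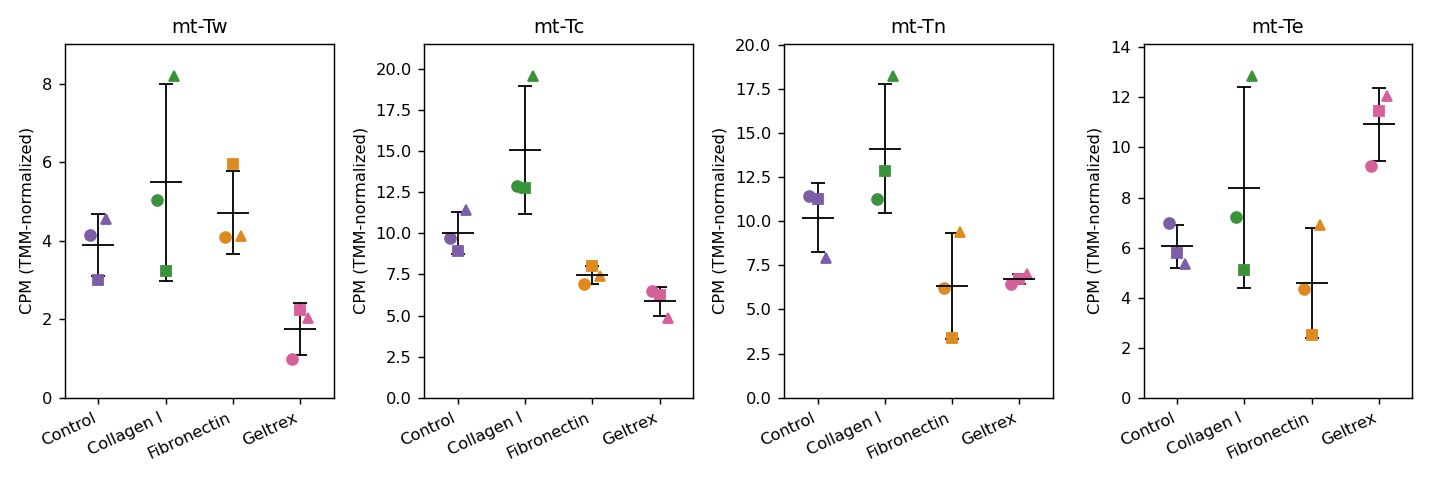
Level (TMM-scaled CPM) of the tRNA gene rows *mt-Tw*, *mt-Tc*, *mt-Tn* and *mt-Te* in each of the 12 samples (marker shapes for the replicate number), with the mean (long bar) and SD (whiskers) of the 3 samples per group. Geltrex™ is lowest for *mt-Tw*, at 0.982 to 2.22 CPM, and above Control and Fibronectin for *mt-Te*, at 9.27 to 12.04 CPM.

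*mt-Tp*, with the most counts of the tRNAs, had 58.3, 41.8 and 64.2 on Control, 52.3, 50.8 and 102 on Collagen I, 32.9, 40.3 and 43.6 on Fibronectin and 45.02, 42.97 and 47.3 on Geltrex™ (CPM). Against Fibronectin, its level on Collagen I was higher by 0.81 ± 0.22 (adjusted p = 0.00704), kept in all 15 alternatives, and against Geltrex™ by 0.60 ± 0.22 (adjusted p = 0.0403), lost in 6 of 15 alternatives, among them the fit without the third Collagen I sample. *mt-Tl1* had 4.69, 4.37 and 3.06 on Control, 5.50, 3.68 and 9.10 on Collagen I, 2.79, 2.55 and 4.85 on Fibronectin and 3.37, 3.25 and 2.93 on Geltrex™ (CPM), and it was higher on Collagen I by 0.83 ± 0.29 against Fibronectin (adjusted p = 0.0304) and 0.93 ± 0.30 against Geltrex™ (adjusted p = 0.0234). Both calls were lost without the third Collagen I sample, and each in 4 of 15 alternatives in all. *mt-Ty*, the tyrosine tRNA, had 0.382 to 2.80 CPM over the 12 samples and was higher on Collagen I by 1.27 ± 0.40 against Fibronectin (adjusted p = 0.0174) and 1.71 ± 0.42 against Geltrex™ (adjusted p = 0.0051). *mt-Tl2*, the other leucine tRNA, had 0.676 to 2.89 CPM and on Collagen I exceeded Fibronectin by 1.02 ± 0.35 (adjusted p = 0.0272). Against Fibronectin, *mt-Ty* lost its call without the third Collagen I or the second Fibronectin sample, and *mt-Tl2* without the third Collagen I sample or any of the Fibronectin samples, while that of *mt-Ty* against Geltrex™ held in the 14 alternatives in which it could be tested. The remaining tested tRNAs, *mt-Tq*, *mt-Ta*, *mt-Th* and *mt-Ts2*, were called in no comparison and had 0.0902 to 3.84 CPM.

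The nuclear genes whose products join the mitochondrial ones were tested from lists of respiratory chain subunits and of the machinery of mitochondrial gene expression. Of 73 tested nuclear subunits of complexes I, III, IV and V, none was called on Collagen I against Control (1.12% of all genes called), 47 were lower and 0 higher on Fibronectin against Control (14.7% of all genes called lower), and 19 were lower and 0 higher on Geltrex™ against Control (16.6% called lower). On Collagen I, 70 were higher and 0 lower than on Fibronectin (22.1% of all genes called higher), and 43 were higher and 0 lower than on Geltrex™ (18.2%). Their median log2 fold changes in these 5 comparisons were 0.20, -0.33, -0.16, 0.52 and 0.32, beside mitochondrial mRNA medians of 0.25, -0.26, -0.26, 0.51 and 0.54. Without each sample in turn the mRNA medians ran from -0.11 to 0.49, -0.42 to -0.055, -0.40 to -0.096, 0.16 to 0.71 and 0.21 to 0.71. The nuclear median was 0.090 on Collagen I against Control without the third Collagen I sample and -0.10 on Geltrex™ against Control without the first Control sample. On Fibronectin against Geltrex™, 0 were higher and 7 lower (9.06% of all genes called lower). There the nuclear median was -0.20 and the mitochondrial mRNA median 0.046. Without each sample in turn these medians ran from -0.24 to -0.14 and from -0.049 to 0.18, and the number lower from 0 to 24. By complex, 26 of 36 tested subunits of complex I were lower on Fibronectin than on Control, 7 of 9 of complex III, 8 of 13 of complex IV and 6 of 15 of complex V. Without the third Collagen I sample, 63 were higher in Collagen I against Fibronectin and 32 against Geltrex™. Against Control, the count on Fibronectin was 31 without the first Control sample, 25 without the first Fibronectin sample and 50 without the third, and on Geltrex™ it was 7 without each Geltrex™ sample in turn, 10 without the first Control sample and 9 without the third. Against Geltrex™, Collagen I had 24 to 33 without each Geltrex™ sample in turn. *Cox8b*, a muscle isoform of a complex IV subunit, had 2.10 ± 0.323 CPM on Control, 0.755 ± 0.404 on Fibronectin and 0.966 ± 0.435 on Geltrex™ (SD, n = 3), lower at -1.46 ± 0.37 (adjusted p = 0.00778) and -1.12 ± 0.37 (adjusted p = 0.0286). *Cox6a2*, another muscle isoform, was lower at -1.16 ± 0.21 (adjusted p = 0.000786) and -1.17 ± 0.22 (adjusted p = 0.0006). *Ndufs7* and *Cyc1*, electron-carrying subunits of complexes I and III, were lower on Fibronectin at -0.63 ± 0.14 (adjusted p = 0.00342) and -0.50 ± 0.15 (adjusted p = 0.0171). The summed myotube markers given above were lower in the same groups, and their part in these values was not tested. Of the 4 subunits of complex II, which has no mitochondrial subunit, 1 (*Sdhd*) was lower on Fibronectin against Control, 3 were higher in Collagen I against Fibronectin, and none was called on Geltrex™ against Control. Of all genes, 14.7% were called lower, 22.1% called higher and 33% called there. On Fibronectin against Geltrex™, 1 was lower (9.06% of all genes called lower). None was called on Collagen I against Control (1.12% of all genes called) or Geltrex™ (37.1%).

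Of 88 tested nuclear genes for mitochondrial transcription, DNA maintenance, RNA processing, RNA modification and tRNA charging, 2 were higher and 18 lower on Fibronectin against Control, and 6 were higher and 19 lower on Geltrex™ against Control, with medians of -0.14 and -0.15. On Collagen I, 25 were higher and 7 lower than on Fibronectin, and 20 were higher and 4 lower than on Geltrex™. Without the third Collagen I sample these were 22 and 3, and 20 and 2. Of all genes, 17.1% were called higher and 14.7% lower on Fibronectin than on Control, 16.4% higher and 16.6% lower on Geltrex™ than on Control, 22.1% higher and 22.9% lower on Collagen I than on Fibronectin, and 18.2% higher and 19% lower in Collagen I against Geltrex™. The 6 higher on Geltrex™ were 2 or 3 in all fits with a sample left out but that without the second Control sample (5), and the 4 lower on Collagen I against Geltrex™ were 1 without each Geltrex™ sample and 2 without the second Collagen I sample. The 18 lower on Fibronectin were 10 without the first Control or the first Fibronectin sample and 11 without the second of either group. On Collagen I against Control, 0 were higher and 1 (*Gars*) lower, beside 0.2% and 0.917% of all genes. This call was lost without the second or the third Control sample or the first or the second Collagen I sample. On Fibronectin against Geltrex™, 9 were higher and 6 lower, beside 10.3% and 9.06% of all genes. Without each sample in turn these ran from 6 to 8 and from 1 to 9. *Polrmt*, the mitochondrial RNA polymerase, had 27.4 ± 2.72 CPM on Control, 26.9 ± 1.76 on Collagen I, 18.1 ± 2.47 on Fibronectin and 20.6 ± 0.988 on Geltrex™ (SD, n = 3). It was lower at -0.60 ± 0.11 on Fibronectin (adjusted p = 0.000677) and -0.41 ± 0.11 on Geltrex™ (adjusted p = 0.00836) than on Control. Its partners *Tfam*, which packages mitochondrial DNA and activates its promoters, and *Tfb2m*, which melts them, were not called, with 0.13 ± 0.07 and -0.05 ± 0.11 on Fibronectin and 0.06 ± 0.07 and -0.20 ± 0.11 on Geltrex™. *Lrpprc* and *Slirp*, which bind and stabilise mitochondrial mRNAs, were not called either, with 0.04 ± 0.09 and -0.09 ± 0.34 on Fibronectin.

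*Primpol*, a primase that restarts stalled DNA copying, was higher on both Fibronectin, by 0.39 ± 0.12 (adjusted p = 0.0165), and Geltrex™, by 0.38 ± 0.12 (adjusted p = 0.0187), than on Control. *Mterf1a*, a termination factor of mitochondrial transcription, was lower on Geltrex™ than on Control at -1.57 ± 0.18 (adjusted p = 8.35e-06) and had -0.26 ± 0.17 on Fibronectin (adjusted p = 0.253). *Twnk*, the helicase of mitochondrial DNA replication, was lower on Geltrex™ at -0.58 ± 0.09 (adjusted p = 0.000202). *Mrm1*, a methyltransferase of the large mitochondrial rRNA, was lower on Geltrex™ at -0.996 ± 0.15 (adjusted p = 0.000113), and *Mettl17*, which acts on the small mitochondrial ribosomal subunit, was lower on Fibronectin at -0.70 ± 0.14 (adjusted p = 0.00174). Among the enzymes that charge mitochondrial tRNAs, *Nars2* (asparagine) was lower on both, at -0.73 ± 0.10 (adjusted p = 6.91e-05) and -0.72 ± 0.10 (adjusted p = 5.85e-05), and *Mars2* (methionine) was lower on Geltrex™ at -1.01 ± 0.13 (adjusted p = 2.06e-05). *Gars* (glycine) was higher on Fibronectin than on Control, by 0.23 ± 0.07 (adjusted p = 0.0196). It was lower than on Control at -0.22 ± 0.07 on Geltrex™ (adjusted p = 0.0231) and at -0.33 ± 0.07 on Collagen I (adjusted p = 0.0305). *Lars2* (leucine) was higher on Geltrex™ by 1.30 ± 0.36 (adjusted p = 0.0113). In each group the sample lowest for *Lars2* was also the lowest for the rows annotated as nuclear rRNA. On Control *Lars2* had 711, 682 and 280 CPM, and those rows 2667, 2485 and 1064 CPM, here scaled to total counts without TMM factors. The part of rRNA reads in the *Lars2* counts was not tested. Of 17 nuclear genes that mark mitochondrial mass, 1 was higher and 2 were lower on Fibronectin, and 1 was higher and 1 lower on Geltrex™, against Control, shares no larger than those of all genes given above. On Collagen I, 5 were higher and 4 lower than on Fibronectin, beside 22.1% and 22.9% of all genes. Against Geltrex™, 1 was higher and 1 lower on Collagen I, beside 18.2% and 19% of all genes.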

How the data were processed

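RNA from 12 samples was sequenced as paired-end reads, 3 samples per coating, grouped by the labels. The authors deposited raw read counts per gene, made, per the labels and the study's methods, with FastQC, Trimmomatic, HISAT2 and featureCounts. Versions, the genome build, the strand setting and the treatment of multi-mapped reads are not given in the sources used here. The sequence coding for green fluorescent protein was not counted. The 37 mitochondrial genes were described by class, per sample and across the 4 groups. The members and the gene lists were chosen with earlier results of these data known.

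All 12 samples entered 1 fit of edgeR 4.0.16 (R 4.3.3): filterByExpr (count minimum 10, total minimum 15), TMM factors and the quasi-likelihood test, adjusted by Benjamini-Hochberg across 14499 genes. Adjusted p of at most 0.05 made a call. Shares and log2 ratios were compared by exact two-sided permutation tests, for which 3 samples against 3 cannot give a p below 0.1. Tests were checked on simulated data. Alternatives were DESeq2 1.42.0, other scalings and filters, a replicate block, fits of only the groups compared and the omission of each sample. Depth was 22520404 to 27351766 counts per sample, and floors cover counting error only. Every mitochondrial gene could be named, with values per sample for rRNAs, mRNAs and the 5 tRNAs of highest mean count. *mt-Tw* was added after its values were seen. Of each nuclear list, the called genes with the highest and lowest fold change against Control on Fibronectin and Geltrex™ (mean of at least 1 CPM) could be named, with *Polrmt*, *Tfam*, *Tfb2m*, *Lrpprc*, *Slirp* and *Twnk*. Of the 5 nuclear genes with the level pattern nearest to the mitochondrial mRNAs, 1 is not reported here.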

Additional observations from a re-analysis of the deposited data

How the results depend on the processing

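Counts of called mitochondrial genes differed by over 1.5 times in the settings that follow. DESeq2 called 1 on Collagen I against Control in place of 0, beside 485 in place of 162 of all 14499 genes. With no filter on low counts, 8 were called on Collagen I, 12 on Fibronectin and 10 on Geltrex™ against Control, and 22 and 23 on Collagen I against Fibronectin and Geltrex™. Every mitochondrial gene with a count in any sample was then tested. Of all 29301 genes tested there, 581, 4682, 4802, 6582 and 5540 were called. With only the groups compared in the fit, 5 were called on Fibronectin and 5 on Geltrex™ against Control, beside 3681 of 13880 and 5396 of 13872 genes. Leaving out each sample in turn gave 0 on Collagen I, 1 to 4 on Fibronectin and 1 to 3 on Geltrex™ against Control, 6 to 18 and 5 to 17 on Collagen I against Fibronectin and Geltrex™, and 2 to 5 on Fibronectin against Geltrex™. Calls over all genes moved too. In the same order they ran from 44 to 155, 3144 to 4831, 3582 to 4390, 5141 to 6667, 4049 to 5104 and 1717 to 3270. The exact p over the 4 groups ran from 0.00416 to 0.111 for the rRNA share, 0.00273 to 0.112 for the tRNA share, 0.0159 to 0.184 for *mt-Rnr1* over *mt-Rnr2* and 0.00416 to 0.234 for tRNAs over mRNAs. The cause of these changes was not tested.

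Replicate numbers were shared across groups, but in no comparison were all 3 same-number correlations of deviations from the group means above 0.1. They came nearest in Collagen I against Fibronectin, at 0.0473, 0.169 and 0.225. With the replicate block, 5 mitochondrial genes were called on Fibronectin against Control, 18 and 15 on Collagen I against Fibronectin and Geltrex™, and the exact p was 0.0399 for the rRNA share and 0.0104 for the tRNA share. Of all 14499 genes, 4627, 6570 and 5399 were called in these comparisons with the block. In Collagen I against Fibronectin each sample correlated best with its own number, a hint from the data and not from the design. Summing the chromosome 1 copies with their genes, chosen after seeing the data like the block for the ratios and the nuclear lists without each sample, ended the calls of *mt-Atp6* on Fibronectin against Control and Geltrex™. The same sum added a call of *mt-Atp6*, higher on Collagen I than on Fibronectin, with 13 genes called there in place of 12. All 13 mRNAs then had positive log2 fold changes on Collagen I against Control and against Geltrex™, in place of 12 in each. No called gene changed sign in any alternative run. The tRNAs not tested had too few counts for a comparison at this depth.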

Other observations

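Nuclear genes with a mean of at least 10 CPM, 8902 in all, were ranked by how closely their level followed the mean log2 level of the 13 mitochondrial mRNAs over the 12 samples, and 4 of the nearest are given. *Nenf*, which encodes a secreted neurotrophic factor, had Pearson's r of 0.965. *Gm10222*, the chromosome 1 copy of *mt-Nd4l*, had r of 0.963, and its reads cannot be told apart from those of the mitochondrial gene where the sequences are identical. *Trir* and *Zcchc17* had r of 0.952 each. The 12 points share the same libraries and scaling, and the genes were picked for their r.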
